A study of Mus musculus with 10 samples.

Results

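The genes described here had lower levels in MC38 tumors injected with CpG1826 than in tumors injected with PBS, and lie outside the named receptor and signalling families that also held lower genes. They were chosen from the measured values. A gene was kept where its CpG1826 mean minus its PBS mean was at most -0.5 on the log2 scale and all 5 CpG1826 values lay below all 5 PBS values. Of 19938 genes measured, 69 (0.346%) met the first condition and 51 (0.256%) met both. The 17 genes of those families named in the selection were left out, and 16 of these had met the conditions (Ccr2, the other one, had overlapping groups). This left 35 genes. All values of the 35 genes in this comparison are therefore a description, and no test is given for them.

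The 10 arrays measured total RNA of tumors grown under the skin of C57BL/6 mice from MC38, a line of mouse colon carcinoma cells, with no transgene or deletion named in the labels. Tumors of about 40 mm2 received 50 µg of CpG1826, an oligodeoxynucleotide that activates mouse TLR9, in 50 µL of PBS, and were taken 6 h later. The labels describe no schedule of their own for the PBS tumors, and the same one was assumed. Each array is 1 mouse: 26, 29, 482, 592 and 661 in the PBS group and 50, 58, 183, 189 and 595 in the CpG1826 group, and values are given in that order. Array values are log2 intensities from 2.03 to 14.70, with array medians of 6.47 to 6.53. No detection call was used, and a low value does not mean that a gene was off. The number of arrays limits the precision. In a whole tumor, fewer cells of a type and less RNA per cell cannot be told apart.

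As background, macrophages and dendritic cells of a tumor sense CpG DNA through TLR9 in endosomes, and the signal reaches the nucleus through NF-κB and MAP kinases. Both cell types carry surface receptors, transporters and lipid enzymes by which they sense and take up material from their surroundings. C/EBP, AP-1, PU.1 and MEF2 proteins are transcription factors that are active in myeloid cells, among others.

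Promoter sequences were matched for 29 of the 35 genes in RefSeq windows of GRCm38.p6, from 250 bases before to 50 after each start (39 windows, 23 genes with 1 window). The 8 motifs searched, on both strands, were GAGGAAGT (PU.1), TAAAAATA (MEF2), TGANTCA (AP-1), GGGA and TTTCC with any base between them (NF-κB), TTGCNNAA (C/EBP), TCACGTG (the E-box of MiT/TFE factors), TTTC repeated with any 2 bases between (the interferon-stimulated response element) and TATAAA (the TATA box). C/EBP letters were the most frequent: they occurred in 6 of 29 genes (20.7%), against 11.3% of 15563 genes with a window among all genes measured. AP-1 letters were in 3 of 29 genes (10.3%, against 8.06%), TATA boxes in 3 (10.3%, against 13.6%), and PU.1 letters in 2 (6.90%, against 3.24%). The E-box was in 2 genes (6.90%, against 5.36%), the interferon response element in 2 (6.90%, against 3.89%), and MEF2 letters in Rnase6 (3.45%, against 2.27%). The NF-κB letters were in 0 of the 29 genes and in 0.514% of all genes. The windows had a median of 9 CG dinucleotides (range 1 to 52), against 15 over 19116 windows, and a median GC content of 54%, against 57.7%. A gene was counted where any of its windows held the letters. Of the genes with C/EBP letters, Cnr2, Dhrs3, Fgd4 and Rnase6 have more than 1 window each, and so more bases in which to match. The motifs also differ in their number of fixed bases, so their frequencies cannot be ranked on equal terms. Letter matches are a description of these windows, and a missing match says only that the letters are not there.

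The promoters shown are those of the 35 genes that held a C/EBP match within the 100 bases before the start, because this motif was the most frequent of those searched. Each sequence runs 5′ to 3′ on the strand of the gene and ends 1 base before the start, and capitals mark the match.
Cnr2, chr4:135911580-135911679 (+ strand): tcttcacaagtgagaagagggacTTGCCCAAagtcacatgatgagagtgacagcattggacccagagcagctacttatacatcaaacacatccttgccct
Dhrs3, chr4:144893037-144893136 (+ strand): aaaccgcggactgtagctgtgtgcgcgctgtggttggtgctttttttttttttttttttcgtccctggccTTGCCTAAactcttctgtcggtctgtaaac
Fgd4, chr16:16527412-16527511 (- strand): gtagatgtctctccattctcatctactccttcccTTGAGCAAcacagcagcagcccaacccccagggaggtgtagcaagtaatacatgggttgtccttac
Rnase6, chr14:51128964-51129063 (+ strand): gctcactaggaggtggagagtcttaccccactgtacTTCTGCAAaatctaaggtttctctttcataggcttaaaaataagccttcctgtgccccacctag
Sfrp2, chr3:83766221-83766320 (+ strand): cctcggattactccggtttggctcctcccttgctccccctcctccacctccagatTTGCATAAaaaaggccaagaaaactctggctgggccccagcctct
The first base of the match lay 77 bases before the start in Cnr2, 30 in Dhrs3, 66 in Fgd4, 64 in Rnase6 and 45 in Sfrp2. Tmem273 held a match farther from its start. In Rnase6 the window also held MEF2 and interferon response letters between the match and the start.

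The differences of the 35 genes ran from -1.07 to -0.50 with a median of -0.62, where the median over all genes was -0.02. This corresponds to levels 1.42-fold to 2.10-fold lower, and 1 gene reached 2-fold. Groups without overlap, CpG1826 below PBS, occurred in 2.42% of all genes. The gap between the lowest PBS and the highest CpG1826 value was 0.02 to 0.48, and exceeded the SD of the PBS tumors in 23 of the 35 genes. Each of the 35 genes rests on 1 entry of the deposited table with a single gene symbol, called a probe here. No second such entry could be set beside it. Their genes are spread over 18 chromosomes, with 0 pairs that neighbour each other among the genes measured.

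**Figure D1:**
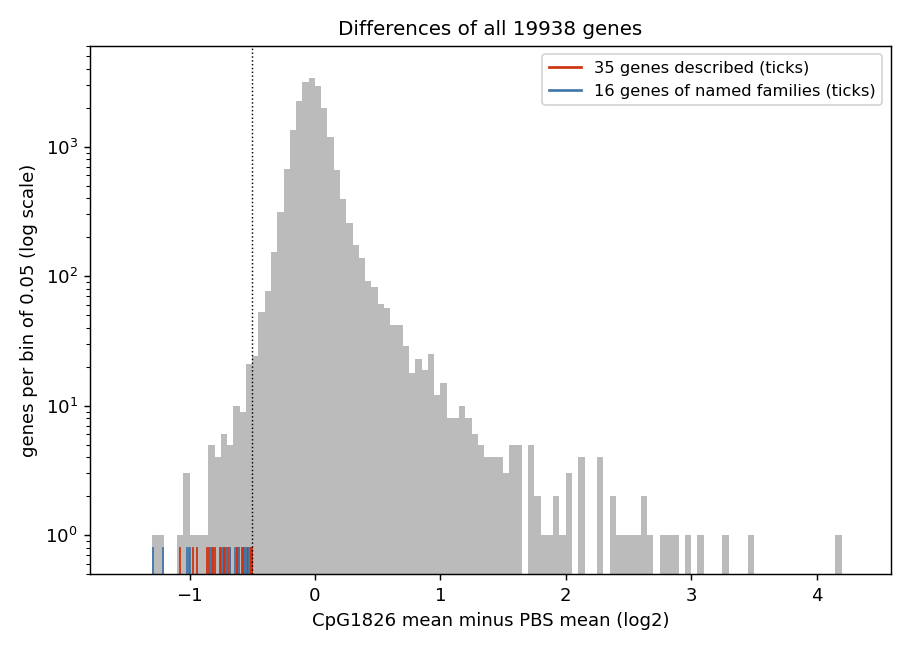
Histogram of the CpG1826 minus PBS difference (log2, x axis) for all 19938 genes, with the number of genes per bin of 0.05 on a log axis. Ticks mark the 35 genes described and the 16 left out that met the conditions, all left of the dotted line at -0.5; the right side of the distribution reaches farther from 0 than the left.

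Just inside the limit of -0.5 were Ckb (-0.51), Mrgprf (-0.51), Ntpcr (-0.51), Man1c1 (-0.50) and Dna2 (-0.50). Just outside it, with groups that did not overlap either, were Zfp810 (-0.50, above the limit before rounding), Stab1 (-0.49), Alox5ap (-0.48), Tnfsf13b (-0.47) and Tnfsf8 (-0.47). Kif26b (-0.77), Nrep (-0.70), Lrmp (-0.66) and Klhl6 (-0.62) had differences beyond -0.5 but overlapping groups.

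Receptors coupled to G proteins and a regulator of their signal made up 5 of the 35 genes. Rgs2 encodes a protein that switches off Gq by speeding its GTP hydrolysis, and it had the largest difference of the 35. Rgs2 read 7.72, 8.0, 8.01, 8.05 and 7.59 in the PBS tumors and 6.87, 6.91, 6.74, 6.37 and 7.12 in the CpG1826 tumors. The group means were 7.87 ± 0.21 with PBS and 6.80 ± 0.28 with CpG1826, SD, n = 5 each, a difference of -1.07 or 2.10-fold lower. CpG1826 mouse 189 was the lowest and mouse 595 the highest of the treated tumors. The lowest PBS value, that of mouse 661, still lay 0.48 above mouse 595.

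Cnr2 encodes the cannabinoid receptor of leukocytes. Cnr2 read 6.27, 6.10, 6.28, 6.36 and 6.26 in the PBS tumors and 5.30, 5.55, 5.54, 5.74 and 5.64 in the CpG1826 tumors. The 5 PBS values lay within a narrow band, and the difference was -0.70 (1.62-fold lower). Cmklr1 is the receptor for the attractant chemerin on macrophages and dendritic cells. Cmklr1 read 7.94, 8.23, 8.33, 8.35 and 8.21 in the PBS tumors and 7.44, 7.54, 7.68, 7.55 and 7.79 in the CpG1826 tumors. Its means were 8.21 ± 0.16 with PBS and 7.60 ± 0.14 with CpG1826, SD, n = 5 each, 1.53-fold lower. Olfr111 belongs to the olfactory receptor family. Olfr111 read 5.74, 4.97, 5.15, 5.03 and 5.51 in the PBS tumors and 4.20, 4.85, 4.74, 4.53 and 4.95 in the CpG1826 tumors. PBS mouse 29 and CpG1826 mouse 595 nearly met, with a gap of 0.02, the smallest of the 35 genes. The mean level of Olfr111 was low, at percentile 20.7 of all genes. Olfactory receptors have close relatives, and cross-hybridization of its probe was not tested. Mrgprf, an orphan receptor of the Mas-related family, was 1.43-fold lower (6.59 ± 0.22 with PBS and 6.08 ± 0.11 with CpG1826, SD, n = 5 each).

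Other listed leukocyte receptors of this class differed in both directions. Of 29 measured receptors on a list of leukocyte G protein-coupled receptors that are not among the 35 genes, 3 fell and 3 rose in the limma test, against 1.10% lower and 3.56% higher over all genes. At an unadjusted p under 0.05, 8 of the 29 were lower and 5 higher, against 7.43% and 8.13% of all genes. The list's median difference without Cnr2 and Cmklr1 was -0.07. Hcar2, a receptor for hydroxybutyrate and niacin, rose by 1.85 ± 0.15 (SE, limma adjusted p = 6.8e-06), and Gpr84, a receptor for medium-chain fatty acids, by 1.61 ± 0.20 (limma adjusted p = 0.000285). Gpr35 rose by 0.91 ± 0.11 (limma adjusted p = 0.000308). The 3 that fell were Lpar6 (-0.44, limma adjusted p = 0.00503), C5ar1 (-0.38, limma adjusted p = 0.0306) and Gpr34 (-0.28, limma adjusted p = 0.0345). Gpr34 had a low level, with a PBS mean of 3.84. Over the fits without 1 mouse, 1 to 4 receptors of this list fell and 3 to 4 rose.

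Proteins that act on the actin skeleton made up 4 of the genes: 3 exchange factors that activate the small GTPase Cdc42, and a class I myosin. Fgd2 encodes such an exchange factor of antigen-presenting cells. Fgd2 read 8.08, 8.35, 8.43, 8.29 and 8.17 in the PBS tumors and 7.53, 7.41, 7.48, 7.61 and 7.54 in the CpG1826 tumors. The 5 treated values differed little from each other (SD 0.07), and the gap of 0.48 to the lowest PBS value was the largest of the 35 genes. The difference was -0.75 (1.68-fold lower). Its relative Fgd4, known for its part in peripheral nerve myelin, differed by -0.53. Fgd4 read 7.90, 7.57, 7.66, 7.80 and 7.57 in the PBS tumors and 7.13, 7.37, 7.07, 6.94 and 7.36 in the CpG1826 tumors. Mice 58 and 595 were the highest of the treated group.

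Dock8, whose loss causes an immune deficiency in humans, activates Cdc42 in migrating leukocytes. Dock8 read 8.72, 8.92, 8.90, 9.03 and 8.68 in the PBS tumors and 7.94, 8.39, 8.44, 8.33 and 8.55 in the CpG1826 tumors. CpG1826 mouse 50 stood lowest, and the difference of -0.52 was -0.42 without it. Myo1f encodes a myosin of leukocytes that supports their migration and adhesion. Myo1f read 9.03, 8.98, 9.05, 8.96 and 8.55 in the PBS tumors and 8.0, 8.24, 8.48, 8.29 and 8.47 in the CpG1826 tumors. PBS mouse 661 was far below the other PBS tumors and only 0.07 above the highest treated tumor. The difference was -0.62 (8.91 ± 0.21 with PBS and 8.29 ± 0.20 with CpG1826, SD, n = 5 each).

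Membrane transporters and channels gave 6 genes, 3 of them ATP-binding cassette (ABC) transporters. Abcg3, an ABC transporter of rodents, had the second largest difference of the 35. Abcg3 read 5.99, 6.19, 6.15, 6.36 and 5.69 in the PBS tumors and 5.27, 5.15, 5.00, 5.00 and 5.07 in the CpG1826 tumors. The treated tumors lay between 5.00 and 5.27, while PBS mouse 661 was the lowest of its group. The mean level of Abcg3 was low, at percentile 30.6 of all genes, and its signal over background is unknown. The difference was -0.98 (1.97-fold lower). Abcc3 exports organic anions such as bile acid conjugates. Abcc3 read 8.84, 8.57, 8.68, 8.64 and 8.29 in the PBS tumors and 7.84, 7.52, 7.95, 7.47 and 8.19 in the CpG1826 tumors. Mouse 595 among the treated and mouse 661 among the PBS tumors came within 0.10 of each other, at a difference of -0.81. Abca9 is an ABC transporter of the subfamily that moves lipids. Abca9 read 6.59, 6.45, 6.42, 6.51 and 6.60 in the PBS tumors and 5.61, 5.78, 5.61, 6.10 and 5.86 in the CpG1826 tumors. Its PBS values spread by an SD of 0.08, and CpG1826 mouse 189 was the highest treated tumor.

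The other transporters of this group sit in endosomes and lysosomes. Slc9a9 is a sodium and proton exchanger of endosomes. Slc9a9 read 8.18, 8.09, 7.89, 8.17 and 8.08 in the PBS tumors and 7.45, 7.46, 7.32, 7.13 and 7.68 in the CpG1826 tumors. It was 1.60-fold lower, with mouse 482 the lowest PBS and mouse 595 the highest treated tumor. Tpcn1, a cation channel of endosomes and lysosomes, differed by -0.54 (8.62 ± 0.07 with PBS and 8.08 ± 0.18 with CpG1826, SD, n = 5 each). Slc29a3, which carries nucleosides out of lysosomes, differed by -0.52 (9.04 ± 0.05 with PBS and 8.51 ± 0.18 with CpG1826, SD, n = 5 each). Of 27 measured genes of lysosome and endocytosis, none of them among the 35, 3 fell and 1 rose in the limma test (4 lower and 3 higher at an unadjusted p under 0.05), at a median difference of -0.02. Over all genes, 1.10% were lower and 3.56% higher in the limma test, and 7.43% and 8.13% at the unadjusted p. Ehd1, which recycles endocytic membrane, rose by 0.33 ± 0.07 (SE, limma adjusted p = 0.0156). Laptm5 differed by -0.36, Lipa by -0.34 and Gusb by -0.32 (limma adjusted p = 0.0475, 0.0483 and 0.0388). The call of Laptm5 was lost in 7 of the 10 fits without 1 mouse, and that of Lipa in 9. The number that fell was 0 to 3 over the fits without 1 mouse.

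Enzymes of lipid, sterol and retinoid metabolism were the largest group, with 7 genes. Tmem86a encodes a lysoplasmalogenase, which cleaves ether lipids. Tmem86a read 8.98, 8.78, 8.79, 8.74 and 8.60 in the PBS tumors and 7.67, 7.95, 8.12, 7.80 and 8.16 in the CpG1826 tumors. All PBS values lay 0.44 or more above all treated values, and the difference was -0.84 (1.79-fold lower). Hacd4 is a dehydratase of fatty acid elongation. Hacd4 read 6.53, 6.50, 6.53, 6.70 and 6.13 in the PBS tumors and 5.37, 5.85, 5.36, 5.64 and 6.09 in the CpG1826 tumors. CpG1826 mouse 595 and PBS mouse 661 were separated by 0.04, at a difference of -0.82. Dhrs3 reduces retinaldehyde and so limits retinoic acid. Dhrs3 read 9.54, 8.93, 8.75, 8.91 and 8.84 in the PBS tumors and 8.13, 8.43, 8.08, 8.31 and 8.36 in the CpG1826 tumors. PBS mouse 26 stood above the other PBS tumors, and the difference of -0.73 was -0.59 without it.

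Cyp27a1 encodes a mitochondrial hydroxylase that makes oxysterols. Cyp27a1 read 7.09, 7.24, 7.30, 7.25 and 7.14 in the PBS tumors and 6.60, 6.40, 6.66, 6.57 and 6.88 in the CpG1826 tumors. It was 1.50-fold lower, and mouse 595 was again the highest treated tumor. Scd2, a stearoyl-CoA desaturase that makes monounsaturated fatty acids, differed by -0.57 (11.69 ± 0.06 with PBS and 11.12 ± 0.41 with CpG1826, SD, n = 5 each). In Scd2 the treated group was spread by 1 tumor, mouse 183 at 10.40, without which the difference was -0.39. Abhd15, which restrains fat breakdown in adipocytes, was 1.48-fold lower (6.79 ± 0.07 with PBS and 6.23 ± 0.10 with CpG1826, SD, n = 5 each). Daglb makes an endocannabinoid that is a ligand of the receptor encoded by Cnr2, and was 1.45-fold lower (8.73 ± 0.10 with PBS and 8.20 ± 0.13 with CpG1826, SD, n = 5 each).

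Of 23 measured genes on a list of lipid and sterol genes, without Abca9 and Scd2, 2 fell and 1 rose in the limma test, against 1.10% lower and 3.56% higher over all genes. At an unadjusted p under 0.05, 8 of the 23 were lower and 3 higher, against 7.43% and 8.13% of all genes. Their median difference was -0.12. Alox5ap, which hands arachidonic acid to lipoxygenase, fell by 0.48 on the log2 scale (SE 0.09, limma adjusted p = 0.00737). Fabp5, a fatty acid binding protein also made by keratinocytes, rose by 0.43 ± 0.09 (SE, limma adjusted p = 0.0123). Without 1 mouse, 1 to 3 genes of this list fell and 1 to 2 rose.

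Transcription regulators gave 3 genes. Sertad4 encodes a nuclear protein with a SERTA domain. Sertad4 read 9.73, 9.82, 9.95, 9.96 and 9.87 in the PBS tumors and 8.88, 9.52, 8.91, 9.02 and 9.41 in the CpG1826 tumors. Mice 58 and 595 were well above the other treated tumors, and the difference was -0.72 (1.65-fold lower). Lmo2 is a LIM-only adaptor of the complexes that control blood and endothelial cell genes. Lmo2 read 8.92, 8.64, 8.57, 8.74 and 8.70 in the PBS tumors and 8.09, 8.20, 8.11, 8.16 and 8.24 in the CpG1826 tumors. The treated tumors were within 8.09 to 8.24, and the difference was -0.55. Mef2c is a transcription factor of muscle, endothelial and myeloid cells. Mef2c read 7.70, 7.60, 7.59, 7.68 and 7.36 in the PBS tumors and 6.91, 7.17, 6.95, 7.04 and 7.15 in the CpG1826 tumors. PBS mouse 661 was the lowest of its group and lay 0.20 above CpG1826 mouse 58.

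Other genes on a list of macrophage factors were set beside Mef2c, for which no test is given. Of 22 measured macrophage transcription factors, Mef2c not counted, 0 fell and 4 rose in the limma test (3 lower and 7 higher at an unadjusted p under 0.05, which 7.43% and 8.13% of all genes reached), at a median difference of 0.11. Cebpb rose by 0.93 ± 0.14 (SE, limma adjusted p = 0.00174), Ets2 by 0.85 ± 0.12 (limma adjusted p = 0.000904), and Spi1, which encodes PU.1, by 0.72 ± 0.14 (limma adjusted p = 0.00921). The number that rose was 3 to 4 over the fits without 1 mouse, and 0 to 1 fell.

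Inhibitors of WNT signalling gave 2 genes. Sfrp2 encodes a secreted protein of mesenchymal cells that binds WNT ligands or their receptors. Sfrp2 read 8.06, 7.96, 8.07, 8.77 and 7.99 in the PBS tumors and 7.11, 7.57, 7.75, 7.29 and 7.61 in the CpG1826 tumors. PBS mouse 592 stood above the other PBS tumors, and the difference of -0.70 was -0.56 without it. Apcdd1 encodes a membrane protein that binds WNT and its receptor. Apcdd1 read 9.16, 9.23, 9.28, 9.27 and 9.78 in the PBS tumors and 8.79, 8.69, 8.42, 8.79 and 9.01 in the CpG1826 tumors. Here mouse 661 was the high PBS tumor. The difference was -0.61, and -0.50 without mouse 661. The tumors that stood out were thus not the same for both genes.

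Other enzymes gave 6 genes. Rnase6 is an antimicrobial ribonuclease of macrophages and epithelia. Rnase6 read 7.18, 7.32, 7.42, 7.46 and 7.36 in the PBS tumors and 6.42, 6.49, 5.92, 6.81 and 6.80 in the CpG1826 tumors. The PBS tumors were close together (SD 0.11), while the treated ones spread by an SD of 0.36 with mouse 183 lowest. The difference was -0.86 (1.82-fold lower). Dglucy encodes a D-glutamate cyclase. Dglucy read 6.90, 6.90, 6.77, 7.16 and 6.43 in the PBS tumors and 5.89, 5.94, 5.83, 6.17 and 6.34 in the CpG1826 tumors. PBS mouse 661 was 0.09 above CpG1826 mouse 595, at a difference of -0.80.

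Ckb is the brain-type creatine kinase, which buffers ATP. Ckb read 8.10, 8.34, 8.16, 8.37 and 8.42 in the PBS tumors and 7.96, 7.43, 7.90, 7.74 and 7.80 in the CpG1826 tumors. Its lowest treated tumor was mouse 58, and the difference of -0.51 was -0.43 without it. Ntpcr hydrolyses nucleoside triphosphates. Ntpcr read 8.09, 8.34, 8.29, 8.43 and 8.07 in the PBS tumors and 7.61, 7.65, 7.87, 7.76 and 7.80 in the CpG1826 tumors. It was 1.42-fold lower. Man1c1, a mannosidase of the Golgi that trims N-glycans, was 1.42-fold lower (7.92 ± 0.04 with PBS and 7.42 ± 0.15 with CpG1826, SD, n = 5 each). Dna2, a nuclease and helicase of DNA replication and repair, was 1.42-fold lower (7.98 ± 0.12 with PBS and 7.48 ± 0.23 with CpG1826, SD, n = 5 each).

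The remaining 2 genes have little known function. Tmem273 encodes a small membrane protein. Tmem273 read 7.61, 7.39, 7.50, 7.50 and 7.10 in the PBS tumors and 6.04, 6.54, 6.50, 6.51 and 6.79 in the CpG1826 tumors. CpG1826 mouse 50 was the lowest, and the difference was -0.94 (1.92-fold lower), and -0.83 without mouse 50. Otulinl encodes a relative of the deubiquitinase OTULIN that lacks its activity. Otulinl read 9.33, 9.07, 9.07, 9.24 and 8.87 in the PBS tumors and 7.86, 8.43, 8.46, 8.37 and 8.67 in the CpG1826 tumors. Mouse 50 was again the lowest treated tumor, and the difference of -0.76 was -0.63 without it.

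**Figure D2:**
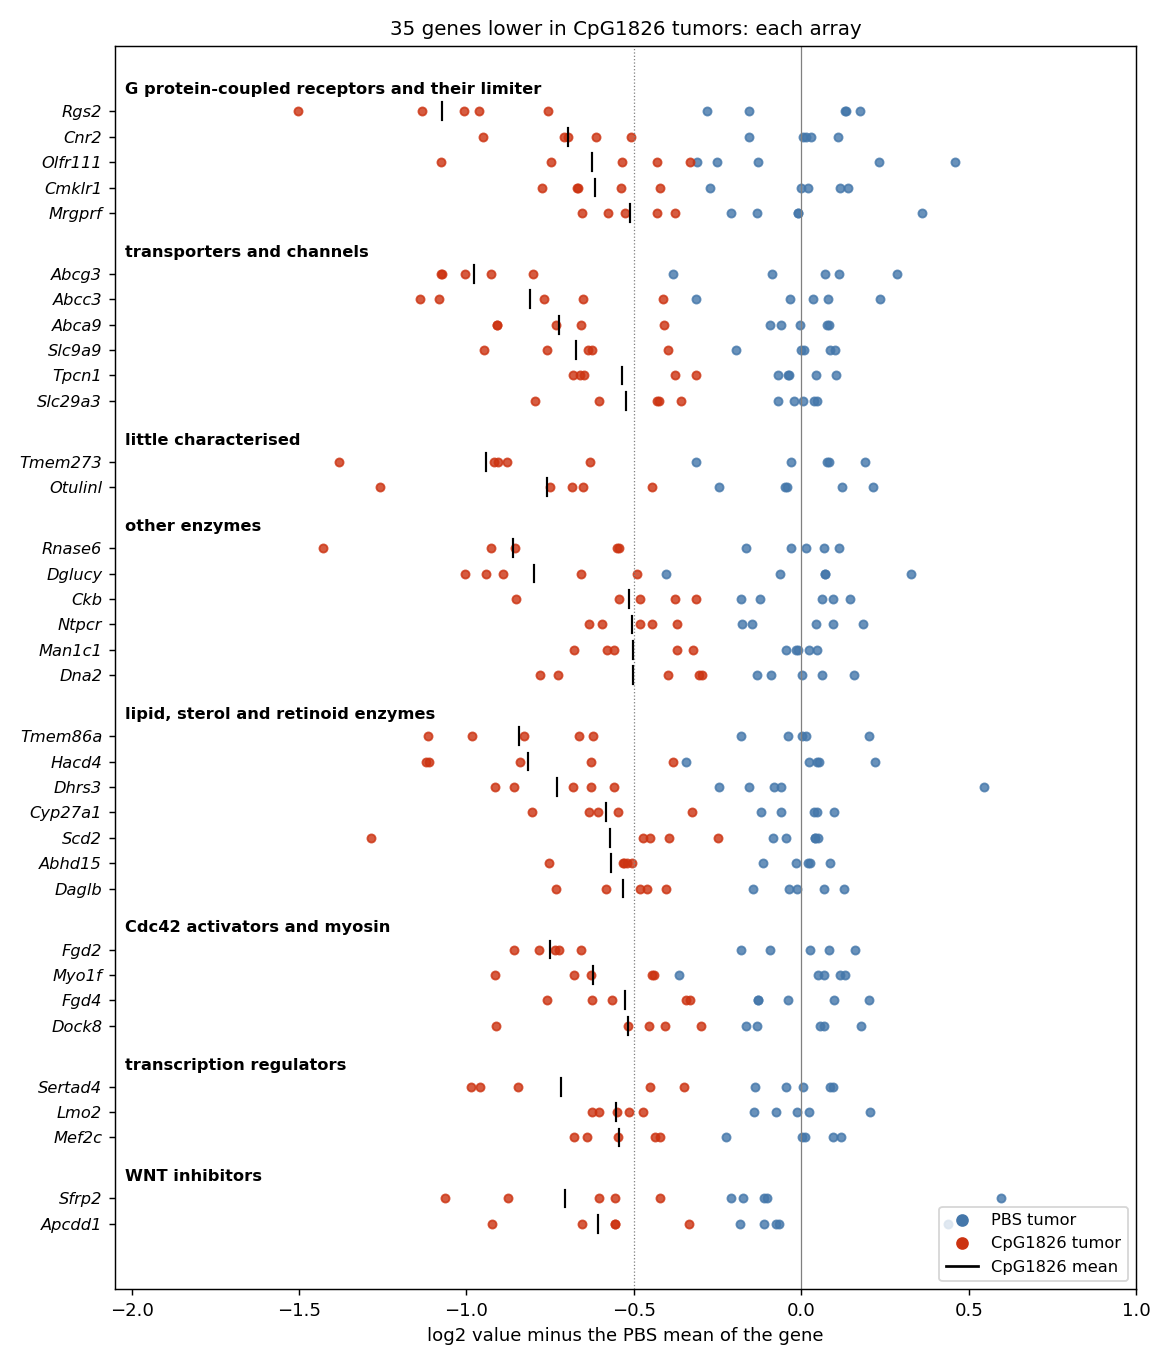
Each row is 1 of the 35 genes, grouped by function, and the x axis is the log2 value of each array minus the PBS mean of that gene. Blue points are the 5 PBS tumors, red points the 5 CpG1826 tumors and black bars the CpG1826 mean. Red and blue do not overlap in any row, which the choice of the genes fixes, and the gap is narrowest for Olfr111 (0.02) and widest for Fgd2 (0.48).

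Within the groups, a few mice held the highest or lowest value for many of the genes. CpG1826 mouse 595 had the highest treated value for 20 of the 35 genes and the lowest for 0, and it lay above the treated mean for 34. CpG1826 mouse 50 had the lowest treated value for 17 genes. Among the PBS tumors, mouse 661 was lowest for 15 genes, while mouse 592 was highest for 14 and mouse 26 for 13. Over all genes, mouse 595 was the highest treated tumor for 16.5% and mouse 50 the lowest for 27.1%. PBS mouse 661 was the lowest PBS tumor for 18.6% of all genes, and mice 592 and 26 the highest for 19.1% and 25.8%. Without mouse 595, 60 genes met both conditions in place of 35, all 35 among them. Without PBS mouse 661, 52 genes met them, and 31 of the 35 were among these.

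The mean log2 value of the 35 genes was 8.04, 7.99, 8.0, 8.09 and 7.92 in the PBS tumors and 7.21, 7.36, 7.31, 7.31 and 7.54 in the CpG1826 tumors. The spread between tumors was larger in the treated group for 22 of the 35 genes, and for 57.4% of all genes. The median SD was 0.14 in PBS and 0.20 in CpG1826 tumors for the 35 genes, and 0.13 and 0.14 for all genes. In the fits without 1 mouse, 24 of the 35 differences stayed at -0.5 or beyond each time, and the weakest of the other 11 was that of Scd2.

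**Figure D3:**
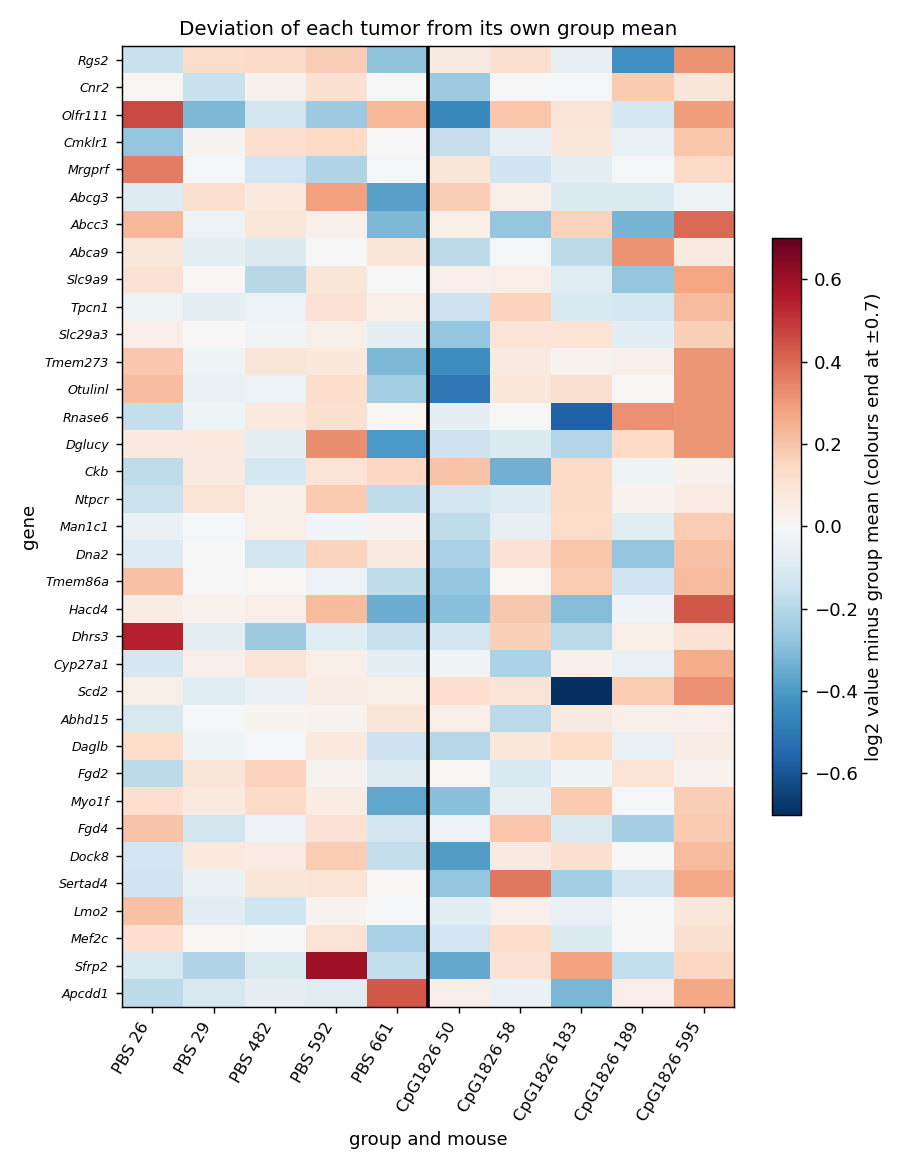
Colours give the log2 value of each tumor (columns, PBS left and CpG1826 right of the line) minus the mean of its own group, for the 35 genes (rows). The CpG1826 595 column is red for 34 of the 35 genes, and the CpG1826 50 column holds the lowest treated value for 17.

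By cell of origin, 6 of the 35 genes (Cnr2, Cmklr1, Fgd2, Dock8, Myo1f and Rnase6) were assigned to leukocytes and Sfrp2 to mesenchymal cells, from general knowledge. Of these, Rnase6 is also a gene of epithelia. The other 28 are expressed widely or were not assigned. The 6 leukocyte genes differed by -0.86 to -0.52 with a median of -0.66, and the 28 by -1.07 to -0.50 with a median of -0.60. None of the 35 is on a marker list of the 16 cell types examined. Skeletal muscle had the lowest list median (-0.25), with all 9 measured markers below 0 and 0 past the limma test. Of 13 T cell markers, 10 lay below 0, and 0 fell and 1 rose in the limma test (median -0.12). Among 18 endothelial markers 1 fell and 0 rose (median 0.01), and among 14 dendritic cell markers 0 fell and 1 rose (median -0.06). At an unadjusted p under 0.05, 3 of the 13 T cell markers were lower and 1 higher, against 7.43% and 8.13% of all genes. At that p, skeletal muscle had 1 lower and 0 higher. The endothelial and dendritic cell lists each had 1 lower and 2 higher. The part of these cell types in the 35 differences was not tested.

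The levels of the macrophage marker list overlapped between the groups. Of 22 measured, 2 fell and 2 rose in the limma test, against 1.10% lower and 3.56% higher over all genes. At an unadjusted p under 0.05, 4 of the 22 were lower and 2 higher, against 7.43% and 8.13% of all genes. The median difference of the list was -0.11, where that over all genes was -0.02, and 13 of the 22 differences lay below 0. The mean of the list was 9.02 to 9.31 in PBS and 8.97 to 9.33 in CpG1826 tumors. Csf1r, the receptor for M-CSF, fell by 0.46 on the log2 scale (SE 0.09, limma adjusted p = 0.0119) and Stab1, a scavenger receptor, by 0.49 (SE 0.10, limma adjusted p = 0.0143). Msr1, another scavenger receptor, rose by 0.66 ± 0.09 (SE, limma adjusted p = 0.000615). Without 1 mouse, 2 to 3 macrophage markers fell and 1 to 2 rose. The part of macrophage number in the lower values was not tested.

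Fibroblast markers overlapped as well. Of 16 measured, 0 passed the limma test (2 lower and 0 higher at an unadjusted p under 0.05), with a median difference of -0.03 and list means of 9.10 to 9.28 in PBS and 8.91 to 9.28 in CpG1826 tumors. Dcn and Col1a1, a proteoglycan and a collagen of fibroblasts, differed by 0.09 and -0.28 (limma adjusted p = 0.673 and 0.243). The list means of keratinocyte, neutrophil and monocyte markers were higher in every CpG1826 tumor than in every PBS tumor. Of 17 keratinocyte markers, 13 rose and 0 fell in the limma test (0 lower at an unadjusted p under 0.05), with Krt1, a keratin of the upper epidermis, higher by 3.06 ± 0.30 (SE, limma adjusted p = 4.74e-05). The keratinocyte mean was 5.51 to 6.04 in PBS and 6.96 to 7.67 in CpG1826 tumors. Of 11 neutrophil markers, 5 rose and 0 fell (0 lower at an unadjusted p under 0.05), and the means of 5.61 to 5.86 and 6.15 to 6.49 did not overlap. Of 9 monocyte markers 1 rose and 0 fell (0 lower and 5 higher at an unadjusted p under 0.05), with means of 7.86 to 8.16 and 8.31 to 8.68. The part of these markers in the 35 differences was not tested.

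Set beside the 35 genes by mouse, the keratinocyte mean was 7.43, 7.18, 6.96, 7.67 and 7.21 in CpG1826 mice 50, 58, 183, 189 and 595, while the 35 genes were lowest in mouse 50 and highest in mouse 595. In the PBS mice 26, 29, 482, 592 and 661 it was 5.72, 5.83, 5.86, 5.51 and 6.04, and there the order ran nearly opposite to that of the 35 genes: mouse 592 had the highest mean of the 35 genes and the lowest keratinocyte mean, and mouse 661 the reverse. The CpG1826 tumors did not follow that order: mouse 183 had the lowest keratinocyte mean and the second lowest mean of the 35 genes (7.31, as in mouse 189 after rounding). The PBS tumor and the CpG1826 tumor with the lowest means of the 35 genes, mice 661 and 50, also had the lowest macrophage means of their groups (9.02 and 8.97). Mouse 50 had the lowest fibroblast mean as well (8.91). Other mice did not keep to this order. CpG1826 mouse 183 had the highest macrophage mean (9.33) beside its low mean of the 35 genes, while mouse 595 was at 9.29. PBS mouse 592, highest for the 35 genes, had a macrophage mean of 9.27, below mice 26 and 29 (both 9.31). PBS mouse 661 had a fibroblast mean of 9.24, above mice 26, 29 and 592. The part of these lists in the values of single mice was not tested. Of 11 markers of epithelial tumor cells, 2 rose and 0 fell in the limma test (2 higher and 0 lower at an unadjusted p under 0.05), and 5 of the 11 differences lay below 0, with a median of 0.02. The list means were 5.40 to 5.62 in PBS and 5.42 to 5.72 in CpG1826 tumors. The 2 that rose were Cdh1, by 0.63 ± 0.13 (SE, limma adjusted p = 0.0102), and Epcam, by 0.32 ± 0.09 (SE, limma adjusted p = 0.0485). The call of Epcam was lost in 8 of the 10 fits without 1 mouse.

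**Figure D4:**
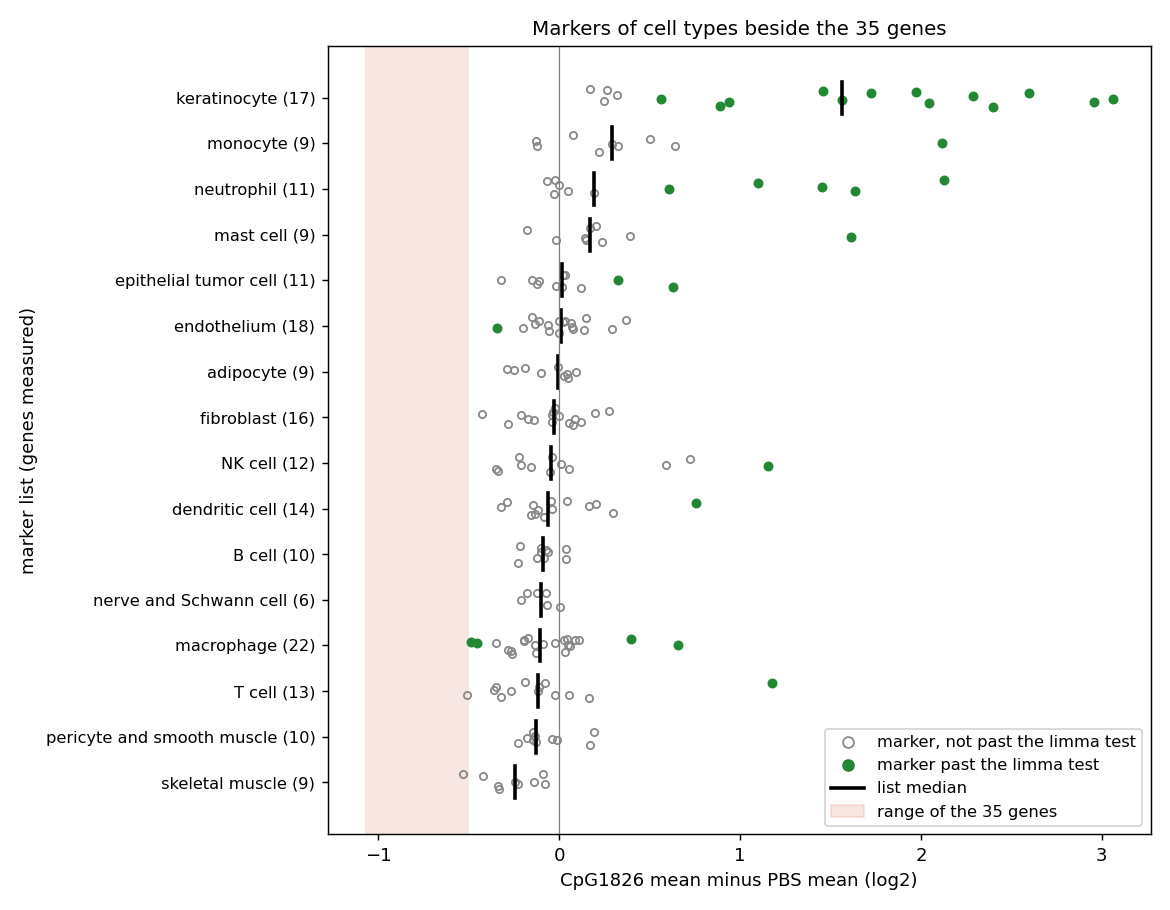
Each row is a marker list with its number of measured genes, and points are its genes by their CpG1826 minus PBS difference (log2); filled points passed the limma test and black bars are list medians. The shaded band is the range of the 35 genes (-1.07 to -0.50). The keratinocyte list lies far to the right (median 1.57), and the macrophage and fibroblast medians are -0.11 and -0.03.

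Over all 24 lists, 725 measured genes that are not among the 35 were examined, and 15 fell and 49 rose in the limma test. Over all genes measured, 1.10% were lower and 3.56% higher in that test, and 7.43% and 8.13% at an unadjusted p under 0.05. The count of list genes that fell depended on single mice: it was 9 without PBS mouse 29, 8 without PBS mouse 482 or 592, 6 without CpG1826 mouse 50 and 7 without CpG1826 mouse 189. Among 350 measured genes whose symbols start with Zfp, most of them zinc finger proteins that bind DNA, 2 fell and 6 rose (19 lower and 20 higher at an unadjusted p under 0.05), at a median of -0.01. Zfp36, which destabilizes cytokine messages, rose by 0.95 ± 0.08 (SE, limma adjusted p = 6.8e-06), and Zfp810 fell by 0.50 on the log2 scale (SE 0.09, limma adjusted p = 0.00566). Of 25 genes of inositol lipid signalling 1 fell and 2 rose (5 lower and 5 higher at an unadjusted p under 0.05). Pik3r5, a regulator of PI3 kinase gamma, rose by 1.05 ± 0.14 (SE, limma adjusted p = 0.000566). The gene that fell was Sesn1 (-0.51, SE 0.12, limma adjusted p = 0.0325), and its call was lost in 6 of the 10 fits without 1 mouse. Of 25 BMP, Notch and ID genes, 0 fell (2 lower and 4 higher at an unadjusted p under 0.05) and Id2, an inhibitor of basic helix-loop-helix factors, rose by 0.69 ± 0.15 (SE, limma adjusted p = 0.0173).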

How the data were processed

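Total RNA from 10 tumors, 5 per group, was labelled with a whole-transcript kit for Affymetrix arrays, per the labels' protocols. The deposited table holds log2 intensities, with the base of the logarithm inferred from their range. How the authors corrected, summarized and normalized them is not stated in the labels. R 2.7.1 and limma are named with no role, per the submitters' processing notes. Of 35512 probes, 21789 had exactly 1 gene symbol in the platform annotation, and the probe with the highest mean stood for a gene (19938 genes). The 35 genes were taken by the stated conditions. All genes entered 1 linear model (limma 3.58.1, R 4.3.3; lmFit, eBayes) with Benjamini-Hochberg adjustment over 19938 genes, a threshold of 0.05 and two-sided tests. The genes, lists and tests were chosen with earlier results of these data known. Named genes were all 35, with all array values for up to 4 per functional group, and up to 3 genes of a list past the test with the largest change (or the 2 with the highest level where none passed), of which not all are printed. The result of 1 gene list is not reported here. The functional groups were assigned from general knowledge after the genes were known. Mice carry separate numbers, so p-values measure the spread between mice. The alternatives were further quantile normalization, median centring, filters on low values, the mean of a gene's probes, a trended and robust prior, array weights, a stricter threshold, other limits of the conditions and leaving out each mouse. The CpG1826 against PBS model was tested on simulated data of 19938 genes, where it called 69 of 100 genes shifted by -0.5, 100 of 100 shifted by -1 and 9 genes with no shift, 178 in all. The simulated noise was normal and independent between genes. It held no differences between mice that many genes share, so these counts need not hold for the real arrays.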

Additional observations from a re-analysis of the deposited data

Results flagged for a closer look

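Some tumors stood apart from the other 4 of their group, with a gap to the nearest of them above the 95% limit of Dixon's test, which chance exceeds in about 1 of 20 groups. This occurred in 14 of 172 groups of values examined, 6 of them in the 35 genes. Among these, PBS mouse 26 was high for Dhrs3 (9.54), PBS mouse 592 for Sfrp2 (8.77) and PBS mouse 661 for Apcdd1 (9.78). PBS mouse 661 was low for Myo1f (8.55), CpG1826 mouse 183 for Scd2 (10.40) and CpG1826 mouse 58 for Abhd15 (6.04). Among genes of the lists, PBS mouse 26 was high for Ccr7 (7.51) and Lipa (10.60) and low for Cebpb (7.70) and Ets2 (7.80). PBS mouse 661 was low for Pik3r5 (7.46) and Vav1 (8.52). CpG1826 mouse 58 was low for Cebpb (9.11), and CpG1826 mouse 50 was high for S100a9 (8.01).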

How the results depend on the processing

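The differences of the 35 genes kept their sign in all 516 recomputations, and each moved by no more than the spread between tumors. For the fits without 1 mouse, the choice of genes with groups that do not overlap fixed the sign. Leaving out 1 tumor also cannot move a group mean by as much as the SD of that group. Filters on low values and the mean of a gene's probes cannot change the difference of a kept gene with 1 probe. These settings are therefore no test of the sign or size of the differences. The number of genes that met the conditions was 73 with a difference of at most -0.4 and 20 with at most -0.6, and 31 to 60 when 1 mouse was left out. After a further quantile normalization 32 of the 35 met the conditions, and 30 after median centring. The genes past the limma test numbered 220 lower and 710 higher. The lower count was 440 when arrays were quantile normalized again, 338 among genes of above-median level, and 121 to 209 without 1 mouse. The higher count was 558 to 667 without 1 mouse. At an adjusted p under 0.01, 64 were lower and 407 higher. Of the list genes, 25 fell after the further quantile normalization, and without 1 mouse 6 to 19 fell and 42 to 50 rose. The cause was not tested. Of 704 recomputed tests of single list genes, 64 lost and 1 gained the call. No paired analysis was possible because no mouse number occurs in both groups. The number of arrays limits precision, and signal over background is unknown.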
